A study of Homo sapiens with 4 samples.

Results

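The 45 genes described here carry a numbered NDUF symbol, the naming used for nuclear-encoded genes of respiratory complex I. They were chosen by symbol alone: 37 follow the pattern of a structural subunit (NDUFA, NDUFB, NDUFC, NDUFS or NDUFV with a number) and 8 that of an assembly factor (NDUFAF with a number), out of 36601 genes in the count table. The pattern leaves out the subunit NDUFAB1 and takes in NDUFA4, whose product is now placed in complex IV. The cells are BEAS-2B, an immortalised line of human bronchial epithelium, measured by droplet single-cell RNA sequencing of transcript 3′ ends. There were 4 libraries: unirradiated cells (control), the low-dose group of 10 mGy and 100 mGy of gamma rays, and the high-dose group of 1 Gy. Every group was the same cultured line and was a single library, so a dose cannot be told apart from its library, and no test between doses was possible.

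Complex I, or NADH:ubiquinone oxidoreductase, is the entry point for electrons from NADH into the mitochondrial respiratory chain and pumps protons across the inner membrane. Its catalytic core is built from subunits of nuclear origin, which carry the flavin and the iron-sulphur clusters, and from the ND subunits encoded by mitochondrial DNA. Around this core sits a shell of accessory subunits, also nuclear, and a separate set of assembly factors builds the complex without remaining in it. Airway epithelial cells in culture use this chain beside glycolysis.

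The label of the line was compared with marker genes. KRT7, KRT8 and KRT18, keratins of simple epithelia, lay at 219 to 645 CPM (UMIs per 1000000 of the library) in the 4 libraries. VIM, a mesenchymal filament gene common in cultured lines, lay at 2344 to 2702 CPM. FN1, a matrix gene of the same kind, lay at 1546, 622.5, 640.1 and 1466 CPM in the control, 10 mGy, 100 mGy and 1 Gy libraries, so it too separated the low-dose pair. EPCAM and KRT19 were near 1 to 2 CPM, and CDH1, KRT5 and KRT14 were at or near 0, so the airway basal keratins and the adhesion genes of polarised epithelium were close to absent. Of 9 leukocyte, endothelial and erythroid markers, only CD68 exceeded 1 CPM in any library, at 7.02 to 10.8 CPM.

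Library totals ranged from 211752280 to 285806026 UMIs over 11111 to 21514 barcodes, and a pair of libraries shared 76 to 134 barcode sequences. Low-UMI barcodes, those whose UMI count times 3 was below the median of their library, made up 19.6% of the control, 41.4% and 27.4% at 10 and 100 mGy, and 25.4% at 1 Gy. The share of UMIs from ribosomal protein genes was 14.1%, 20.3%, 22.1% and 14.2% in the same order. The part of these differences in the results was not tested, except where values without such barcodes or under another scaling are given.

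Transcripts of the structural subunits took a larger share of the transcriptome in the low-dose group than in the control or at 1 Gy. Summed over the 37 genes they made up 0.535% of the UMIs in the control, 0.855% and 0.906% at 10 and 100 mGy, and 0.531% at 1 Gy. Thus the libraries at 10 mGy and 100 mGy stood together above the other pair. The 8 assembly factors summed to 0.0518%, 0.0626%, 0.0678% and 0.0541%, also highest in the low-dose libraries but over a narrower range, with 1 Gy rather than the control next. The corresponding share of the 7 mitochondrially encoded ND genes went the other way, with 13368 CPM in the control, 8504 and 7635 at 10 and 100 mGy, and 14017 at 1 Gy.

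Gene by gene, 31 of 37 structural subunits were over 1.2-fold above the control at 10 mGy and 1 was over 1.2-fold below it. Over all 8507 genes with a mean of at least 10 CPM, a floor that all 45 NDUF genes passed, the shares were 15.4% higher and 53.0% lower. At 100 mGy, 30 structural subunits were higher and 1 lower, against 14.0% and 58.9% of all genes. At 1 Gy, 0 were higher and 1 was lower, against 1.28% and 0.846%. The median log2 ratio of the structural subunits to the control was 0.64, 0.73 and −0.02 at 10 and 100 mGy and at 1 Gy, where the median of all genes was −0.30, −0.38 and 0.02. Of the 8 assembly factors, 3 were higher and 0 lower at 10 mGy, 5 higher and 1 lower at 100 mGy, and 1 higher and 0 lower at 1 Gy, with medians of 0.22, 0.38 and 0.03. Thus at the low doses the structural subunits lay farther above the transcriptome as a whole than the assembly factors did.

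The size of these differences depended on how the libraries were scaled. With median ratio scaling, which sets the median of all genes near 0, the structural medians at 10 mGy and 100 mGy were 0.94 and 1.12 and those of the assembly factors 0.52 and 0.76. As plain UMIs per barcode, with no scaling for depth, the structural medians stayed positive at 0.11 and 0.09, while those of the assembly factors turned negative at −0.31 and −0.27. Without scaling, 13 structural subunits were over 1.2-fold higher and 6 lower at 10 mGy, where 138 of the 8507 genes were higher and 7199 lower. The 100 mGy library gave 10 higher and 7 lower, against 87 and 7663 of all genes.

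**Figure D1:**
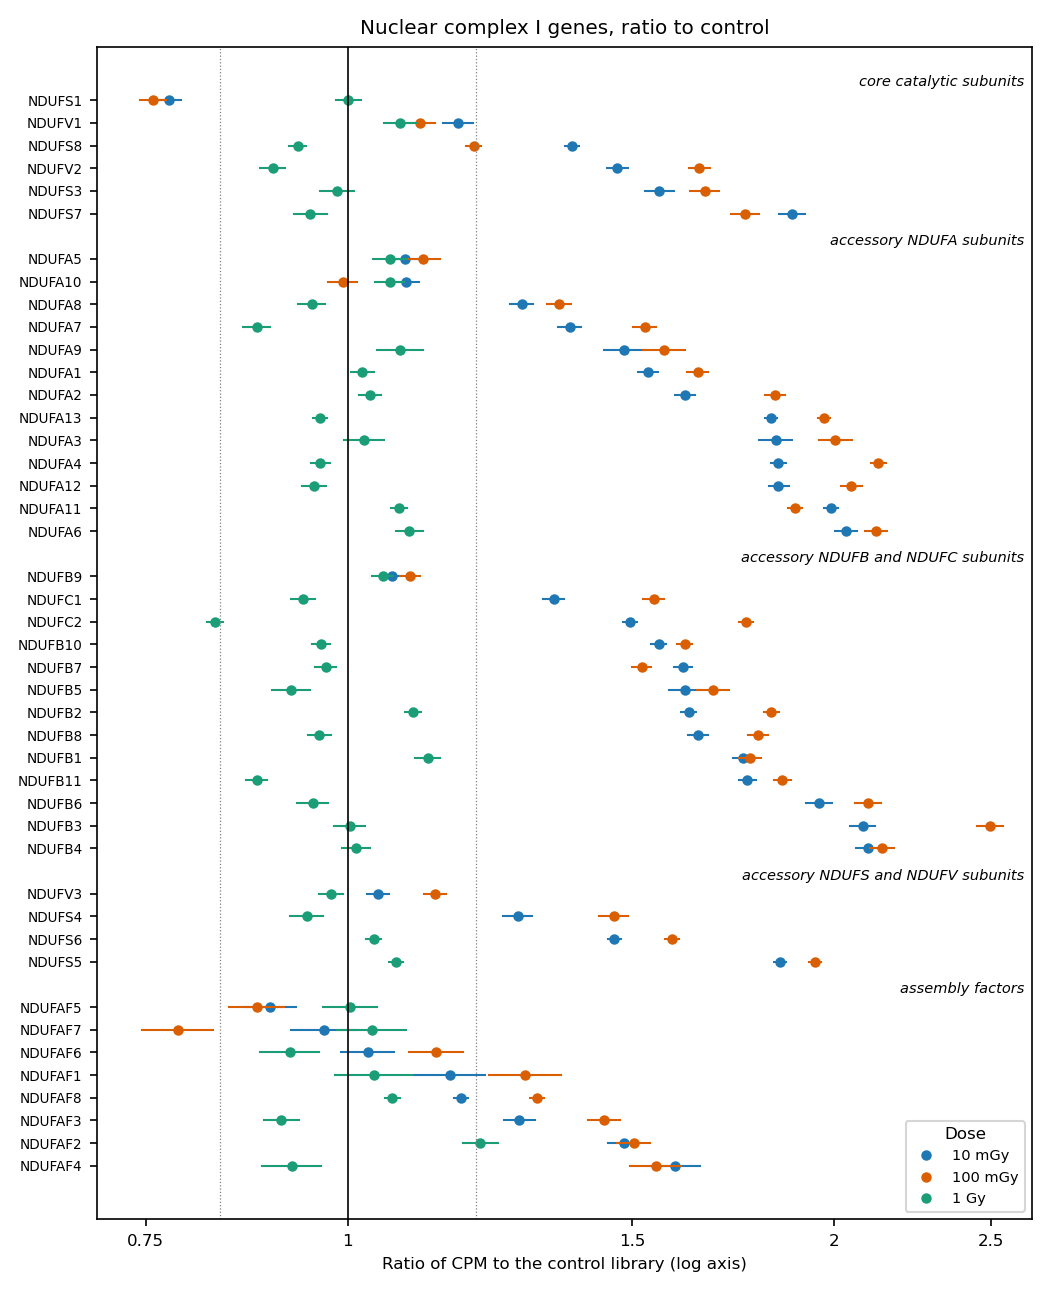
Ratio of CPM in each irradiated library to the control for the NDUF genes, on a log axis, with genes grouped by role and ordered by the ratio at 10 mGy. Points are ratios, bars are 95% intervals of counting error, the solid line marks a ratio of 1 and the dotted lines 1.2-fold in either direction. At 10 mGy and 100 mGy most structural subunits lie to the right of the dotted line, with NDUFS1 alone beyond it on the left among them, whereas at 1 Gy the genes shown other than NDUFC2 and NDUFAF2 lie within both. Without scaling for depth, 6, 7 and 36 structural subunits are over 1.2-fold lower at the 3 doses in rising order, as are 7199, 7663 and 8265 of all 8507 genes.

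Upstream sequence was examined because nuclear respiratory genes are known to share promoter elements, among them the sites of NRF1, YY1 and ETS factors. RefSeq windows (GRCh38.p14) running from 250 bases before to 50 after the start site were matched by symbol for 38 of 45 genes. Those without a window included NDUFA4, NDUFAF6, NDUFB5, NDUFB9, NDUFC2 and NDUFS5. Some genes have several windows, and fixed motif letters were searched in all of them on both strands. The core GCGCATGC, from the NRF1 consensus, was found for 6 of 31 structural subunit genes (19.4%) and 2 of 7 assembly factor genes (28.6%), where 7.45% of the 6923 expressed genes with a window and 3.68% of all 27305 genes held it. The YY1 letters AAGATGGC were in 7 of 31 (22.6%) and 1 of 7 (14.3%), against 7.87% and 3.52%. The ETS letters CCGGAAGT were in 2 of 31 (6.45%) and 0 of 7, against 11.7% and 4.95%. The letters of 1 motif were allowed to overlap those of another, a gene was counted once however many matches it had, and a match is a description and not a binding site.

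The stretches of 30 bases that hold the NRF1 core are shown so that its surroundings can be compared, with the core in capitals, 5′ to 3′ on the strand given. Where the core is followed or preceded by letters that make it match on both strands, the strand of the gene is shown.
NDUFB4, chr3:120596166-120596195, plus strand: aagagcacttcGCGCATGCgcatatcaccg
NDUFA6, chr22:42090920-42090949, plus strand: cggtgggtgctGCGCATGCtcatctacaga
NDUFA5, chr7:123557958-123557987, minus strand: gtatgcccatcGCGCATGCgtcaatttttc
NDUFA8, chr9:122159765-122159794, minus strand: tgttgccggatGCGCATGCgcaggcgccgt
NDUFS6, chr5:1801350-1801379, plus strand: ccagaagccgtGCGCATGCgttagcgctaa
NDUFS7, chr19:1383823-1383852, minus strand: agcggctcggaGCGCATGCggaaaccggaa
NDUFAF4, chr6:96897867-96897896, minus strand: ccctcacttgtGCGCATGCtccgggtgtcc
NDUFAF5, chr20:13785013-13785042, plus strand: aagccgcgctgGCGCATGCgcacaaaaagc

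All 8 YY1 matches lay on the strand of the gene and began 10 to 25 bases after the start site. The YY1 letters hold ATG, and whether this is the start codon of each gene was not examined. Capitals in the next set mark these matches.
NDUFA3, chr19:54102865-54102894, plus strand: ccgcggagacaAAGATGGCtgcgagtaagt
NDUFA6, chr22:42090729-42090758, minus strand: gatgctttggcAAGATGGCggggagcggcg
NDUFA7, chr19:8321343-8321372, minus strand: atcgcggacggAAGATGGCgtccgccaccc
NDUFA9, chr12:4649113-4649142, plus strand: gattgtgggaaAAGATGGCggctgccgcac
NDUFB8, chr10:100529836-100529865, minus strand: tgaagaaggtgAAGATGGCggtggccaggg
NDUFS4, chr5:53560649-53560678, plus strand: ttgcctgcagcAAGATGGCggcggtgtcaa
NDUFS7, chr19:1383913-1383942, plus strand: aggccgaggccAAGATGGCggtgctgtcag
NDUFAF8, chr17:81239316-81239345, plus strand: aggacggacctAAGATGGCggcctccaggg

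NDUFA6 and NDUFS7 held both. The genes with the NRF1 core differed widely at 10 mGy, from a ratio to the control of 0.896 for NDUFAF5 and 1.08 for NDUFA5 to 2.03 for NDUFA6 and 2.10 for NDUFB4. Those with the YY1 letters ran from 1.18 for NDUFAF8 and 1.27 for NDUFS4 to 1.88 for NDUFS7 and 2.03 for NDUFA6. NDUFB3, with the highest ratio at 100 mGy, and NDUFS1, the structural subunit with the lowest, held neither. Genes with the NRF1 core were thus found both near the control level and far above it, as were genes with neither, such as NDUFV3 and NDUFB3. At 100 mGy the genes with the YY1 letters ran from 1.31 for NDUFAF8 to 2.12 for NDUFA6.

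The 7 core catalytic subunits of nuclear origin ran at 10 mGy from the lowest ratio of all structural subunits, 0.776 for NDUFS1, to 1.88 for NDUFS7. At that dose 5 were higher and 1 lower, and at 100 mGy 4 were higher and 1 lower (all genes 15.4% and 53.0%, then 14.0% and 58.9%), with median log2 ratios of 0.46 and 0.42 that became −0.07 and −0.22 without scaling for depth. At 1 Gy the median was −0.02 and 0 were past 1.2-fold (all genes 1.28% higher, 0.846% lower).

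NDUFS7, which carries the last iron-sulphur cluster before ubiquinone, had 69.9 CPM in the control, 131.7 and 123.1 at 10 and 100 mGy, and 66.3 at 1 Gy. Its ratio to the control was 1.88 (95% interval of counting error 1.85 to 1.92), 1.76 and 0.948. NDUFS3, a subunit of the ubiquinone-binding module, had 62.1, 96.9, 103.3 and 61.2 CPM, ratios of 1.56, 1.66 and 0.985. In both genes the low-dose libraries stood above the other pair by more than the counting error.

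NDUFV2 and NDUFV1 belong to the NADH-oxidising module, NDUFV1 binding the flavin and NDUFV2 an iron-sulphur cluster. NDUFV2 had 121.3 CPM in the control, 178.1 and 200.2 at 10 and 100 mGy, and 109.1 at 1 Gy, ratios of 1.47, 1.65 and 0.899. NDUFV1 had 68.2, 79.9, 75.6 and 73.5 CPM, ratios of 1.17, 1.11 and 1.08. These neighbours in the complex therefore differed, with NDUFV1 within 1.2-fold of the control at every dose.

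NDUFS8, another iron-sulphur subunit, had 262.8 CPM in the control, 361.8 and 314.7 at 10 and 100 mGy, and 244.8 at 1 Gy. Its ratios were 1.38, 1.197 (just short of the 1.2-fold mark) and 0.931. Without scaling for depth its ratio was 0.955 at 10 mGy and 0.766 at 100 mGy, the latter over 1.2-fold below the control.

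NDUFS1, the large subunit with several iron-sulphur clusters on the NADH side, went the opposite way. It had 116.6 CPM in the control, 90.5 and 88.3 at 10 and 100 mGy, and 116.7 at 1 Gy. Its ratios were 0.776 (0.762 to 0.789), 0.758 (0.744 to 0.772) and 1.00 (0.984 to 1.02). On the CPM scale it was the only structural subunit below the control at 10 mGy, and with median ratio scaling its low-dose ratios were 0.956 and 0.989, within 1.2-fold. NDUFS1 also has the longest transcript of the 45, an APPRIS principal transcript of 11819 bases (GENCODE 29) where the structural median is 963.

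**Figure D2:**
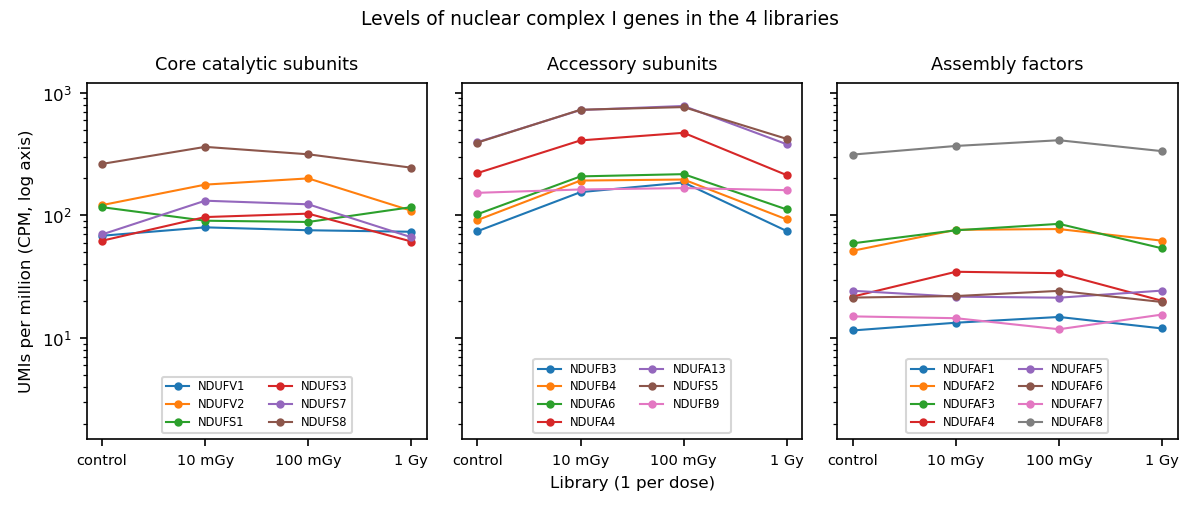
CPM (log axis) of 6 core catalytic subunits, 7 accessory subunits and the 8 assembly factors in the 4 libraries, 1 library per dose, with each gene joined by a line only to guide the eye. NDUFB3 goes from 74.3 CPM in the control to 185.4 at 100 mGy and back to 74.5 at 1 Gy, whereas NDUFS1 dips from 116.6 to 88.3 and returns to 116.7. Genes should be compared across libraries rather than with each other.

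Of the 37 structural subunits 30 are accessory, and they are set here beside the shares of all genes that were higher (15.4% at 10 mGy, 14.0% at 100 mGy) or lower (53.0% and 58.9%). Of the 13 NDUFA genes, 11 were higher at 10 mGy and 11 at 100 mGy, with 0 lower at either dose and median log2 ratios of 0.69 and 0.88. The 13 NDUFB and NDUFC genes, subunits of the membrane arm, had 12 higher at each low dose, 0 lower, and medians of 0.70 and 0.83. The 4 accessory genes NDUFS4, NDUFS5, NDUFS6 and NDUFV3 had 3 higher at each low dose, with medians of 0.45 and 0.61. Without scaling for depth the NDUFA medians were 0.17 and 0.23 and the NDUFB and NDUFC medians 0.17 and 0.18, while the last group went to −0.08 and −0.04. At 1 Gy these 3 groups had medians of 0.03, −0.05 and 0.01, with 0 higher and 1 lower among the 30 genes (all genes 1.28% higher, 0.846% lower).

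NDUFB4 (chr3:120596309-120602500, plus strand, GRCh38), a small membrane-arm subunit, had the highest ratio of the 45 at 10 mGy. It had 91.6 CPM in the control, 192.2 and 196.0 at 10 and 100 mGy, and 92.7 at 1 Gy, from 19495, 54933, 47928 and 19625 UMIs. The ratios to the control were 2.10 (2.06 to 2.13), 2.14 (2.11 to 2.18) and 1.01 (0.992 to 1.03), so at 1 Gy its interval included 1. GENCODE 29 lists 12 pseudogenes of NDUFB4, of which 0 are in the count table, and reads shared with them could be assigned or lost depending on the authors' counting.

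NDUFB3 (chr2:201071433-201085750, plus strand, GRCh38), also of the membrane arm, had the highest ratio at 100 mGy. It had 74.3, 154.7, 185.4 and 74.5 CPM in the control, 10 mGy, 100 mGy and 1 Gy, ratios of 2.08 (2.04 to 2.12), 2.495 (2.45 to 2.54) and 1.00 (0.981 to 1.03). Among all 8507 genes, 2.495-fold was also the highest ratio to the control at 100 mGy in CPM. This rank was not kept in every setting. After thinning to 5000 UMIs the highest was 2.467 over all genes and 2.444 among the structural subunits. In barcodes of 10000 to under 20000 UMIs they were 2.431 and 2.403. No pseudogene of NDUFB3 is listed.

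NDUFB6, a further subunit of that arm, had 77.4, 151.4, 162.3 and 73.6 CPM, ratios of 1.96, 2.10 and 0.952. NDUFA6, an accessory subunit at the junction of the arms, had 102.2, 207.9, 216.8 and 111.7 CPM, ratios of 2.03, 2.12 and 1.09. NDUFA11, of the membrane arm despite its symbol, had 282.4, 562.0, 534.1 and 303.8 CPM, ratios of 1.99, 1.89 and 1.08. Thus in each of these 3 genes the low-dose libraries held about double the control level (1.89 to 2.12-fold), and the 1 Gy library lay within 1.2-fold of it.

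NDUFA4 had 221.3 CPM in the control, 408.6 and 471.1 at 10 and 100 mGy, and 212.9 at 1 Gy, ratios of 1.85, 2.13 and 0.962. Its product was long counted in complex I and is now placed in complex IV, and it is kept here because its symbol fits the pattern. Without it, 30 of 36 structural subunits were higher at 10 mGy and 29 of 36 at 100 mGy (all genes 15.4% and 14.0%).

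NDUFA13 and NDUFS5 were likewise highest in the low-dose libraries. NDUFA13, also known as GRIM-19, had 395.5, 722.9, 779.6 and 380.1 CPM, ratios of 1.83, 1.97 and 0.961. NDUFS5, on the outer face of the membrane arm, had 392.4, 726.4, 763.5 and 420.4 CPM, ratios of 1.85, 1.95 and 1.07. Pseudogenes are also listed for NDUFS5 (6), NDUFA5 (12), NDUFA3 (5), NDUFAF4 (4) and 13 further members with 1 to 3 each, among them NDUFB9, NDUFA4, NDUFA12 and NDUFV2, and same-strand exon overlaps for NDUFB2, NDUFC1, NDUFS3 and NDUFV1, so their values carry the same limit as that of NDUFB4. NDUFA13 overlaps exons of YJEFN3 on the same strand, which itself had 3.90, 1.59, 2.02 and 4.01 CPM.

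A few accessory subunits stayed near the control in the low-dose group. NDUFV3, of the NADH-oxidising module, had 127.9, 133.6, 144.9 and 125.0 CPM, ratios of 1.04, 1.13 and 0.977. NDUFB9, of the membrane arm, had 152.7, 162.6, 166.9 and 160.5 CPM, ratios of 1.06, 1.09 and 1.05. NDUFA10, also of that arm, had 82.1, 89.1, 81.5 and 87.1 CPM, ratios of 1.09, 0.993 and 1.06, and NDUFA5, of the peripheral arm, was likewise within 1.2-fold at every dose, at 1.08, 1.11 and 1.06. With NDUFV1 and NDUFS1, these are the 6 structural subunits that were not over 1.2-fold higher at 10 mGy, and with median ratio scaling only NDUFS1 of them remained under that mark.

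The remaining 18 accessory genes were higher at both low doses, where 15.4% of all genes were higher at 10 mGy and 14.0% at 100 mGy. Their ratios at 10 mGy ran from 1.27 for NDUFS4, a small subunit needed for the stability of the NADH module, through 1.62 for NDUFA2 to 1.85 for NDUFA12. At 100 mGy the lowest was 1.35 for NDUFA8 and the highest 2.05 for NDUFA12, with NDUFA3 at 2.003. At 1 Gy the highest ratios among the accessory subunits were those of NDUFB1 at 1.12, NDUFB2 at 1.10 and NDUFA6, and the lowest were those of NDUFC2 at 0.828 (0.818 to 0.838) and of NDUFB11 and NDUFA7, each at 0.879. NDUFC2, a subunit of the membrane arm, had 286.2 CPM in the control, 427.9 and 504.9 at 10 and 100 mGy, and 236.9 at 1 Gy, and was the only structural subunit past 1.2-fold lower at 1 Gy.

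The assembly factors were more mixed. NDUFAF4 and NDUFAF3, which act together on an early membrane intermediate, had 21.8, 34.7, 33.8 and 20.1 CPM and 59.2, 75.5, 85.3 and 53.9 CPM in the control, 10 mGy, 100 mGy and 1 Gy. The ratios of NDUFAF4 were 1.59 (1.54 to 1.65), 1.55 and 0.923, and those of NDUFAF3 1.28, 1.44 and 0.910. NDUFAF2, a late-acting factor that is a paralogue of the subunit NDUFA12, had 51.5, 76.3, 77.3 and 62.2 CPM. Its ratios were 1.48, 1.503 and 1.21 (1.18 to 1.24), and in CPM it was the only NDUF gene past 1.2-fold higher at 1 Gy. That margin depended on the setting. Without the low-UMI barcodes the ratio was 1.19. The highest ratio of an assembly factor at 1 Gy was 1.221 after thinning to 5000 UMIs and 1.306 with the barcode mean. NDUFA12 itself had 127.0, 234.7, 260.3 and 121.2 CPM, so at 1 Gy the paralogues lay on opposite sides of the control in CPM, and how reads in stretches of like sequence were assigned is not given in the sources used here.

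NDUFAF8 and NDUFAF5 take part in the arginine modification of NDUFS7. NDUFAF8 had 313.1, 368.1, 409.8 and 333.8 CPM, ratios of 1.18, 1.31 and 1.07. NDUFAF5, the methyltransferase-like partner, had 24.3, 21.8, 21.3 and 24.4 CPM, ratios of 0.896 (0.863 to 0.930), 0.878 (0.845 to 0.913) and 1.00. Their substrate, NDUFS7, had ratios of 1.88 and 1.76 at the low doses, so the 3 genes did not differ from the control by the same amount or in the same direction. With median ratio scaling NDUFAF5 was above the control at both low doses, at 1.10 and 1.15.

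NDUFAF7, an arginine methyltransferase, had 15.0, 14.5, 11.8 and 15.5 CPM, ratios of 0.966, 0.785 (0.746 to 0.826) and 1.03. It was the only assembly factor past 1.2-fold lower at 100 mGy, and it was 1.02-fold above the control there with median ratio scaling. NDUFAF6 had 21.4, 22.0, 24.2 and 19.7 CPM, ratios of 1.03, 1.13 and 0.921. NDUFAF1, which works on the membrane arm with ECSIT and ACAD9, had 11.5, 13.3, 14.9 and 11.97 CPM, ratios of 1.16, 1.29 and 1.04. It was the least counted of the 45, with 2453 UMIs in the control.

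Between the low doses the differences were small. At 100 mGy 30 of 37 structural subunits lay above their level at 10 mGy, with a median log2 ratio of 0.09. Of all 8507 genes 2736 did, with a median of −0.07. Past 1.2-fold there were 0 structural subunits in either direction, where 1.35% of all genes were higher and 12.7% lower. NDUFB3 came nearest, with a ratio of 1.199 (1.18 to 1.21), and NDUFS8 had the lowest, 0.870. Of the assembly factors 0 were higher and 1, NDUFAF7, was lower, at 0.813 (0.775 to 0.852). With median ratio scaling 6 structural subunits were over 1.2-fold higher, as were 399 of the 8507 genes. With ribosomal protein and mitochondrial transcripts out of the total, 2 were, as were 184 of all genes. As unscaled UMIs per barcode the structural median was −0.03 and that of all genes −0.19.

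Set against the 1 Gy library in place of the control, 100 mGy gave 30 structural subunits higher and 1 lower, where 14.0% of all genes were higher and 60.6% lower. The median log2 ratio was 0.76, and that of all genes −0.42. For the assembly factors 6 were higher and 1 lower, with a median of 0.31. NDUFB3 had the highest structural ratio, 2.49, and NDUFS1 the lowest, 0.757. On the CPM scale the 100 mGy library thus stood about as far from the 1 Gy library as from the control. As unscaled UMIs per barcode it did not, with a structural median of 0.60 and 29 higher over 1 Gy but 0.09 and 10 higher over the control; all genes moved likewise, with medians of −0.58 and −1.03 and 827 and 87 of 8507 higher.

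The subunit share was also examined barcode by barcode, since a mean can be moved by a few cells. Among barcodes other than low-UMI ones, the median share of a barcode's UMIs from the 37 structural subunits was 0.530% in the control (quartiles 0.484% and 0.579%), 0.838% at 10 mGy (0.763% and 0.924%), 0.890% at 100 mGy (0.802% and 0.992%) and 0.523% at 1 Gy (0.474% and 0.576%). Of those barcodes, 99.8% at 10 mGy and 99.7% at 100 mGy exceeded the control median, and 46.5% did at 1 Gy. Nearly every such barcode of the low-dose libraries thus lay above the control median. In low-UMI barcodes the share was higher in every library, at 0.618%, 1.06%, 1.08% and 0.740% of their pooled UMIs, where the control rather than 1 Gy was lowest.

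**Figure D3:**
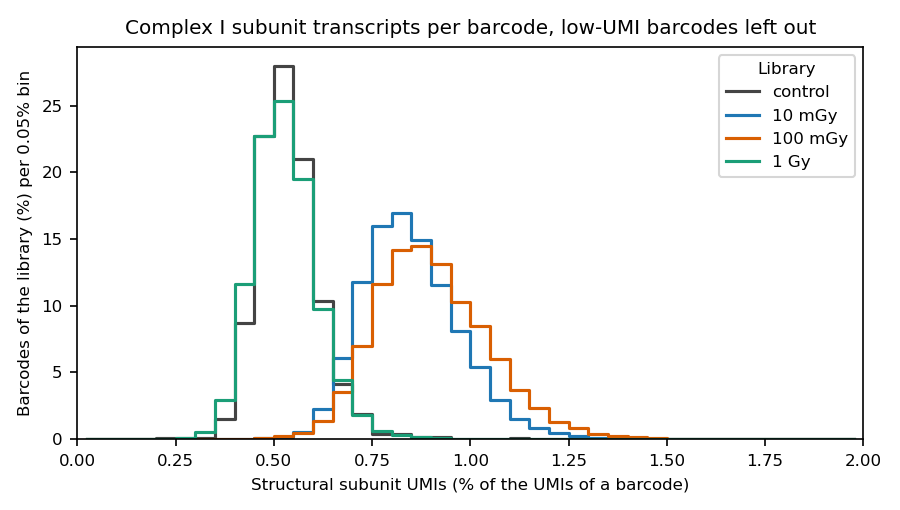
Distribution over barcodes of the share of UMIs from the 37 structural subunits, in bins of 0.05 percentage points, with low-UMI barcodes left out; the vertical axis is the percent of the barcodes of each library. The control and 1 Gy curves lie on each other, with medians of 0.530% and 0.523%, and the 10 mGy and 100 mGy curves lie to the right, with medians of 0.838% and 0.890%.

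Depth differed between the libraries, so barcodes of like depth were compared as well. In barcodes of 10000 to under 20000 UMIs the pooled share was 0.548%, 0.860%, 0.890% and 0.532% in the control, 10 mGy, 100 mGy and 1 Gy. In those of 20000 to under 40000 UMIs it was 0.528%, 0.828%, 0.900% and 0.514%. Left unscaled, the other barcodes held a mean of 124.3, 180.9, 148.4 and 93.5 structural UMIs each, with a mean of 23297, 21452, 16468 and 17819 UMIs in all. In the same barcodes the share of the mitochondrially encoded ND genes was 1.34%, 0.861%, 0.765% and 1.42%. Leaving out the 522 barcode sequences found in more than 1 library changed no count of structural subunits or assembly factors past 1.2-fold.

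Transcript length moved with the low-dose ratios. The APPRIS principal transcripts (GENCODE 29) of the structural subunits had a median length of 963 bases and those of the assembly factors 1905 bases, against 3240.5 bases over the other genes at the floor. Across those other genes, Spearman's rho between the log2 ratio and this length was −0.637 and −0.651 at 10 and 100 mGy, and 0.022 at 1 Gy (8274 genes of the same libraries, which are not independent replicates). Among the 45 NDUF genes it was −0.457, −0.393 and −0.034.

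Other genes of like length were therefore set beside the subunits. For principal transcripts under 1000 bases, the median log2 ratio at 10 mGy was 0.69 for 20 structural subunits and 0.50 for 437 other genes, of which 78.5% were higher. From 1000 to under 2000 bases it was 0.70 for 9 subunits and 0.13 for 1581 other genes, and from 2000 to under 4000 bases 0.46 for 4 subunits and −0.28 for 3081 others. At 4000 bases and over it was 0.09 for 4 subunits, among them NDUFS1, and −0.56 for 3175 others. The gap was thus narrowest where most subunits are, between medians of 0.691 and 0.501. With the length of all annotated exons joined, the structural medians at 10 mGy were 0.65, 0.72, 0.73 and 0.34 in the same bands and those of other genes 0.37, 0.35, −0.03 and −0.45. The assembly factors, with 1 to 3 genes a band, had medians of 0.40, 0.13, 0.35 and −0.16 by principal transcript. The part of length in the ratios was not tested.

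**Figure D4:**
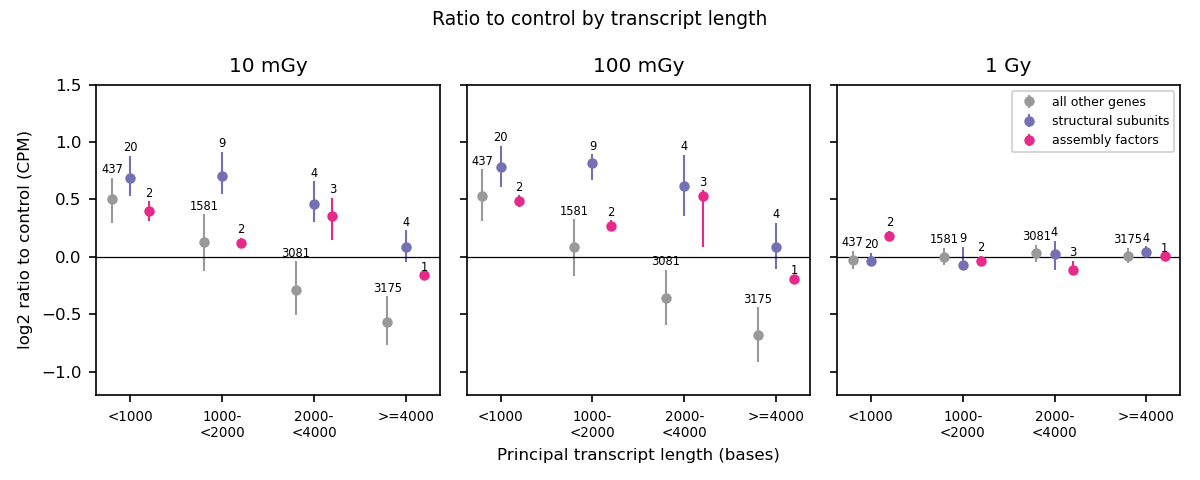
Median log2 ratio of CPM to the control by length of the principal transcript, for other genes, structural subunits and assembly factors, with bars from the first to the third quartile and the number of genes above each. At 10 mGy and 100 mGy the medians fall with length in other genes, from 0.50 to −0.56 at 10 mGy, and the structural subunits lie above them in each band; at 1 Gy every median lies within 0.2 of 0. Without scaling for depth all points of a dose move down together.

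Genes that work with these subunits lay on both sides of the control. At 10 mGy 15.4% of all genes were higher and 53.0% lower, at 100 mGy 14.0% and 58.9%, and at 1 Gy 1.28% and 0.846%. NDUFAB1, the acyl carrier protein that is also a subunit but falls outside the numbered symbols, had 153.5, 241.6, 274.2 and 137.0 CPM, ratios of 1.57, 1.79 and 0.893. Of 12 assembly factors without an NDUF symbol, 10 reached the floor; 4 were higher and 2 lower at 10 mGy, 3 higher and 1 lower at 100 mGy, and 0 in either direction at 1 Gy, with medians of 0.13, 0.12 and 0.06. TMEM126A had 44.6, 68.4, 73.2 and 45.7 CPM, whereas ACAD9 had 38.3, 28.7, 23.8 and 41.8 CPM. Of the 4 complex II genes, 3 were higher and 1 lower at 10 mGy and 2 higher and 1 lower at 100 mGy, with SDHA, its flavoprotein, at 134.2, 101.6, 97.6 and 138.9 CPM and SDHB, its iron-sulphur subunit, at 59.3, 84.1, 74.5 and 59.3 CPM. Without scaling for depth the low-dose medians of these last groups were negative.

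The mitochondrially encoded ND genes, partners of the nuclear core subunits in the same enzyme, had 0 higher and 6 of 7 lower at each low dose, and 2 higher and 0 lower at 1 Gy, where 53.0% and 58.9% of all genes were lower at the low doses and 1.28% higher at 1 Gy. Their median log2 ratios were −0.70, −0.94 and 0.09; with median ratio scaling they were −0.40, −0.55 and 0.06, and without scaling for depth −1.23, −1.58 and −0.40. MT-ND1 had 2118, 1055, 880.6 and 2065 CPM, and MT-ND6, the gene on the light strand, had 318.7, 84.9, 52.0 and 441.5 CPM. MT-ND3 stayed closest to the control at the low doses, at 1585, 1441, 1552 and 1906 CPM, and it was the only gene of the 7 with low-dose ratios above 1 under median ratio scaling. Thus in the same libraries the transcripts of the nuclear subunits and those of the mitochondrial subunits of complex I lay, in the median, on opposite sides of the control at both low doses under each scaling.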

How the data were processed

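The authors deposited raw UMI counts per gene and barcode, whole numbers without normalization, as 1 matrix for each of 4 libraries. The file headers name Cell Ranger 7.0.1, and the submitters' processing notes name Cell Ranger, STAR and GRCh37. Neither the annotation nor the counting of intronic reads is stated: not given in the sources used here. UMIs were summed over every deposited barcode and divided by the library total (CPM). No filter on cells was applied and doublets were kept. Intervals are 95% exact Poisson or Clopper-Pearson intervals and cover counting error only. With 1 library per dose no test was made, and called means over 1.2-fold among genes with a mean of at least 10 CPM. Summed counts were used in place of the mean over barcodes because they give counting intervals; the barcode mean is an alternative. Members and lists were chosen with earlier results of these data known. Named with values were the core subunits, every assembly factor, NDUFA4 and the 5 highest and 5 lowest ratios at each dose, and further members were added; 1 gene is not reported here on its own and stays in the sums, counts and medians. Gene positions and lengths are from GENCODE 29 (GRCh38), matched by gene identifier, and promoter windows from RefSeq (GRCh38.p14). Alternatives covered scaling, barcode selection, thinning to 5000 UMIs, floors and thresholds. Ratios and intervals were tested on simulated data. Python 3.11.15, numpy 2.4.6, scipy 1.17.1 and pandas 2.3.3 were used.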

Additional observations from a re-analysis of the deposited data

How the results depend on the processing

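No paired analysis was possible because each dose is a single library. The counts of structural subunits over 1.2-fold above the control, 31 at 10 mGy and 30 at 100 mGy, were 36 and 36 with median ratio scaling and 13 and 10 as unscaled UMIs per barcode (138 and 87 of all 8507 genes); the 0 at 1 Gy became 2 with the barcode mean (131 of all genes) and 1 in barcodes of 10000 to under 20000 UMIs (255 of all genes). The 3 assembly factors at 10 mGy became 6 with median ratio scaling (2600 of all genes). With ribosomal protein genes and mitochondrially encoded ones left out of the total they became 5 (1643 of all genes). They became 1 at a 1.5-fold threshold, and 0 unscaled (138 of all genes) or at a floor of 100 CPM, which only NDUFAF8 of the 8 passes. The 5 at 100 mGy became 6 under either of those scalings (2707 and 1564 of all genes), 2 at 1.5-fold, 1 at 100 CPM and 0 unscaled (87 of all genes). Counts over all genes at 1.5-fold and at 100 CPM are not given here. The 1 at 1 Gy became 0 with median ratio scaling, unscaled, without low-UMI barcodes, in barcodes of 10000 to under 20000 or 20000 to under 40000 UMIs, at 100 CPM and at 1.5-fold. Of all genes 109 were higher at 1 Gy in CPM, 56 with median ratio scaling, 0 unscaled and 108 without low-UMI barcodes. Median ratio scaling moved the median of all genes from −0.30 to −0.003 at 10 mGy and from −0.38 to 0.0005 at 100 mGy, and the genes higher and lower from 1313 and 4507 to 2600 and 2319, and from 1190 and 5011 to 2707 and 2468; NDUFAF7 at 100 mGy turned to 1.02. Unscaled, among genes over 1.2-fold from the control in CPM, those that turned included at 10 mGy NDUFAF3 (0.886), NDUFC1 (0.930), NDUFS4 (0.883), NDUFA8 (0.889), NDUFS8 (0.955) and NDUFA7 (0.952), at 100 mGy NDUFAF3 (0.922), NDUFC1 (0.989), NDUFS4 (0.935), NDUFAF2 (0.961), NDUFAF4 (0.992), NDUFA8 (0.864), NDUFAF1 (0.824), NDUFAF8 (0.837), NDUFA7 (0.977), NDUFB7 (0.973) and the assembly factor median (−0.27), and at 1 Gy NDUFAF2 (0.861). Genes within 1.2-fold turned as well: counted whatever their size, structural subunits above the control went from 36 to 25 at 10 mGy, 35 to 24 at 100 mGy and 18 to 0 at 1 Gy, and assembly factors from 6 to 2, 6 to 0 and 5 to 0. Of all 8507 genes, those above the control went from 2392 to 533, 2153 to 336 and 4784 to 3 in the same order of doses. Unscaled values follow the lower depth of the irradiated libraries by construction; beyond that the cause was not tested. Over all alternatives the structural median ran from 0.11 to 0.94 at 10 mGy, 0.09 to 1.12 at 100 mGy and −0.51 to 0.07 at 1 Gy. Leaving out barcodes shared between libraries was added after seeing the data.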

Other observations

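Dispersion, the standard deviation over the mean of a gene's scaled UMIs across the barcodes of 1 library, was lower at 100 mGy than at 10 mGy in 1 of 45 NDUF genes over every barcode, where 1.41% of all genes were. Without the low-UMI barcodes it was lower in 0 of 45, where 0.329% of all genes were. After thinning to 5000 UMIs it was lower in 33 of 45, where 31.0% of all genes were. Thinning left out the barcodes with fewer than 5000 UMIs, which were 2051 in the control, 8953 and 5679 at 10 and 100 mGy, and 3980 at 1 Gy. Thus for these genes the order of the low doses in dispersion turned after thinning, which changed both the depth and the barcodes kept. The part of each was not tested. Counting error alone also makes this dispersion fall as the level of a gene rises. In thinned barcodes 30 of 37 structural subunits, 5 of 8 assembly factors and 2804 of all 8507 genes had a higher level at 100 mGy than at 10 mGy. No counting baseline per gene was computed, so dispersion was not told apart from level. The share of the summed structural subunits in thinned barcodes had a dispersion of 19.59% and 19.79% at 10 and 100 mGy, where counting error alone gives 15.34% and 14.88%. The median dispersion of the 45 genes in thinned barcodes was 139.9% in the control, 115.6% and 109.4% at 10 and 100 mGy, and 138.0% at 1 Gy. Over every barcode it was 135.5%, 138.7%, 153.0% and 168.7% in the same order of libraries. Without the low-UMI barcodes it was 70.85%, 62.13%, 70.0% and 80.51%.

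NDUFA4L2, a paralogue of NDUFA4 known as a target of hypoxia signalling, was counted with 49, 47, 30 and 41 UMIs in the control, 10 mGy, 100 mGy and 1 Gy, at most 0.230 CPM. The antisense genes NDUFB2-AS1 and NDUFV2-AS1 had 3.25, 2.74, 2.86 and 3.73 CPM and 2.43, 2.23, 2.18 and 2.02 CPM, and the divergent gene NDUFA6-DT 1.59, 0.983, 0.884 and 1.51 CPM.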
